A study of Saccharomyces cerevisiae with 16 samples.

Results

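The cytosolic ribosomal protein genes of Saccharomyces cerevisiae, budding yeast, were followed through phosphate starvation. Members were taken by name, as every table entry called RPL or RPS with a number and, where present, the letter A or B, together with RPP0, RPP1A, RPP1B, RPP2A and RPP2B. This gave 137 of the 6648 genes used, 81 of the large ribosomal subunit and 56 of the small subunit. Of these, 118 form 59 pairs of A and B copies and 19 have no second copy. Together they encode 78 proteins or protein families.

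All 16 libraries came from a BY4741 derivative labelled Δphm4 that carries a YFP reporter under the PHO84 promoter (pho84pr-YFP). PHM4 is another name of VTC1, a subunit of the vacuolar polyphosphate synthase. A single library came from high phosphate medium (0 min), and the other 15 from cells that had been washed and starved of phosphate, sampled at intervals of 15 min up to 225 min. Per the labels the deletion and the reporter are shared by every library, no strain with intact PHM4 was analysed here, and no time point has a replicate.

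The cytosolic ribosome joins a large subunit, which forms peptide bonds, to a small subunit, which reads the messenger RNA. In yeast most of its proteins are encoded by pairs of genes that arose in an ancient genome duplication, and the copies encode the same or nearly the same protein. Growing cells spend much of their transcription on these genes, through the factors Rap1, Fhl1 and Ifh1 under the control of the TOR and protein kinase A pathways, and lower them together when nutrients run short.

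Values are log2 of reads per 1000000 reads of listed genes (log2 CPM), so each is a share of its library and not an amount per cell. The lowest value of a library was taken as 10 reads. In 14 libraries this makes 94.6% to 96.3% of values under 1000 reads whole, and recovered depths then ran from 603426 to 3437873 reads. The whole share was 87.2% and 88.3% in the libraries labelled 195 and 210 min, so their depths are less sure. The libraries labelled 195 and 210 min stood apart, with 40984 and 45009 reads and 1122 and 1188 listed genes against 4694 to 5475 in the others. VTC1, the gene labelled deleted, was listed in all 16 libraries, at 6.67 to 7.51 log2 CPM in the 14 deeper ones and at 10.80 and 10.90 in those labelled 195 and 210 min. Of 4 genes that BY4741 lacks, LEU2 and MET17 were listed in no library, HIS3 at 0 min (1.92 log2 CPM) and URA3 at 0, 90 and 180 min (2.22, 2.98 and 3.97). Of 5 genes of the MATa mating type all were listed in each deeper library and 3 in each shallow one. Of 4 genes of MATalpha 1 to 3 were listed in the deeper libraries and 0 in the shallow ones. In the deeper libraries the MATa genes stood at 6.50 to 11.76 log2 CPM and the listed MATalpha genes at 2.31 to 5.64. The lowest values listed in the shallow libraries, 244 and 222 CPM, lie above all of these MATalpha levels. Results are therefore given with and without the libraries labelled 195 and 210 min.

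The copies of a pair can be told apart only where their sequences differ. Coding identity ran from 69.2% for RPP1A and RPP1B to 99.4% for RPL1A and RPL1B, with a median of 93.2%, and 21 pairs encode identical proteins. Of the 137 members, 80 share at least 1 stretch of 50 bases with another place in the genome. At 0 min 104 members did not come out as whole reads (within 0.01 read), 76 of the 80 that share a stretch and 28 of the 57 that do not. The share was 4.83% among other genes. How reads with several matches were divided between copies is not given in the sources used here, so values of single copies that share sequence are uncertain. To show how far the copies can be separated, 90 coding bases are printed for 4 pairs on which results below turn, each stretch being the first with the most differences within 1 exon, 5′ to 3′ on the coding strand of build R64, with capitals at bases that differ between the copies.

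RPL31A, chrIV:322704-322793 (plus strand): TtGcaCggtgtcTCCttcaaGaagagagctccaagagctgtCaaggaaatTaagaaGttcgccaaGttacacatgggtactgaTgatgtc
RPL31B, chrXII:931260-931349 (minus strand): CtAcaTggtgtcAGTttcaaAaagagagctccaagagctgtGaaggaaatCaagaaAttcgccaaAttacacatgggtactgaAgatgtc
RPL15A, chrXII:202117-202206 (minus strand): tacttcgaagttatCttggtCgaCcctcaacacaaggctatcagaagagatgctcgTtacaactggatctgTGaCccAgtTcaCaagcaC
RPL15B, chrXIII:509875-509964 (minus strand): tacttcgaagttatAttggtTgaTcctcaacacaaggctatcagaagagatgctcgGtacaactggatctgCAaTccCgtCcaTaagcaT
RPS14A, chrIII:177814-177903 (minus strand): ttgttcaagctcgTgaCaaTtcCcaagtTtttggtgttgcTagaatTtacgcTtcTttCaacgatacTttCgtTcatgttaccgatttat
RPS14B, chrX:74208-74297 (plus strand): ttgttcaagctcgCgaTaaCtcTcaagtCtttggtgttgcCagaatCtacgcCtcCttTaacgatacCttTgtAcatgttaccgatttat
RPL1A, chrXVI:135790-135879 (plus strand): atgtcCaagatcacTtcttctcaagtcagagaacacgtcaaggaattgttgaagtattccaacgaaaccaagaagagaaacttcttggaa
RPL1B, chrVII:254641-254730 (plus strand): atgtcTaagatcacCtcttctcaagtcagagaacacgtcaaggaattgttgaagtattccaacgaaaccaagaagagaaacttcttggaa

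RPL31A and RPL31B differ at 12 of the 90 bases shown and share no stretch of 50 bases, and their values were whole reads in all but 1 library for each copy. RPL15A differs from RPL15B at 11 bases and RPS14A from RPS14B at 13. RPL1A and RPL1B differ at only 2 bases here and at 4 over the whole coding sequence, so most reads of 1 copy would match the other as well.

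Ribosomal protein transcripts fell, recovered in part and fell again. They made up 32.4% of reads at 0 min, 25.2% at 15 min and 7.97% at 75 min, returned to 21.0% at 105 min and 20.5% at 120 min, and reached 4.96% at 180 min and 3.38% at 225 min. The libraries labelled 195 and 210 min do not continue this course, with 24.95% and 23.7%, close to the 15 min library. These 2 libraries list far fewer genes, which raises the share. Over genes listed in all 16 libraries it was 26.7% and 25.7%, against 35.7% at 15 min, 28.4% at 30 min and 5.03% at 225 min. Over windows of 3 successive libraries the share was 10.5% ± 2.69 at 45 to 75 min, 18.3% ± 4.23 at 90 to 120 min and 6.51% ± 2.02 at 150 to 180 min (SD over 3 libraries). Other transcripts fill the remainder of each library, so a fall of this share also raises their CPM.

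**Figure D1:**
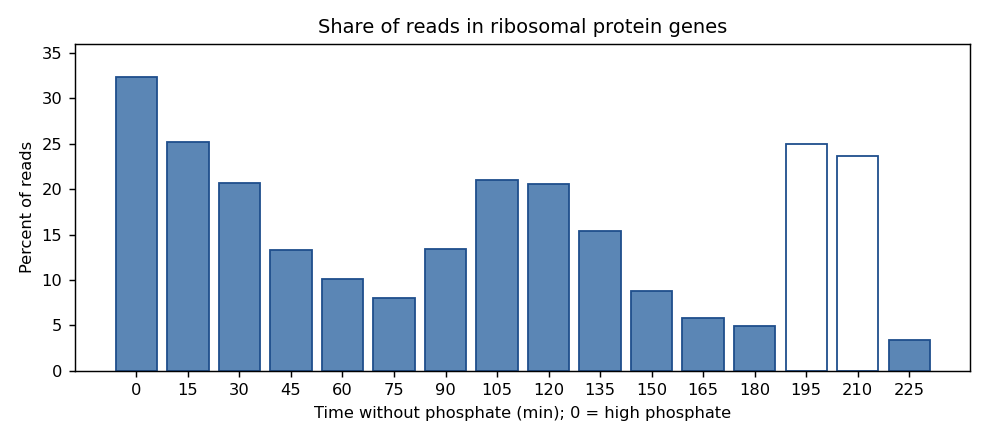
Percent of the reads of listed genes that fell in the 137 ribosomal protein genes (vertical axis) in each library (horizontal axis, minutes without phosphate). Open bars are the shallow libraries labelled 195 and 210 min; filled bars drop from 32.4% to 7.97% at 75 min, return to 21.0% at 105 min and end at 3.38%.

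The median member lay -0.44, -0.74, -1.51, -2.05, -2.27, -1.31, -0.70, -0.76, -1.18, -2.15, -2.97 and -3.10 log2 units from its 0 min value at 15 to 180 min, in steps of 15 min, and -3.51 at 225 min. In those labelled 195 and 210 min it lay at -0.44 and -0.52. Over the windows the median was -1.96 ± 0.39 at 45 to 75 min, -0.92 ± 0.34 at 90 to 120 min and -2.75 ± 0.52 at 150 to 180 min (log2 ratio to 0 min, SD over 3 libraries), or 3.88-fold, 1.89-fold and 6.71-fold lower than at 0 min. The median of all genes moved the other way, to between 0.22 and 0.46 above 0 min in the deeper libraries, so scaling each library to its median gene makes the falls of the members larger, at -2.29, -1.21 and -3.09.

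Members moved as a block. In the 15 min library 0 of 136 listed members were at least 2-fold below 0 min, against a background of 1.37% of all genes. At 75 min 132 of 136 were, against 7.64% of all genes, at 105 min 11 of 137 against 1.42%, and at 225 min 135 of 136 against 10.9%. The lowest value between 15 and 90 min came at 75 min in 90 members, at 60 min in 39 and at 45 min in 6. The highest between 75 and 150 min came at 105 min in 86 and at 120 min in 48. The lowest of all deeper libraries was that of 225 min in 115 members.

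**Figure D2:**
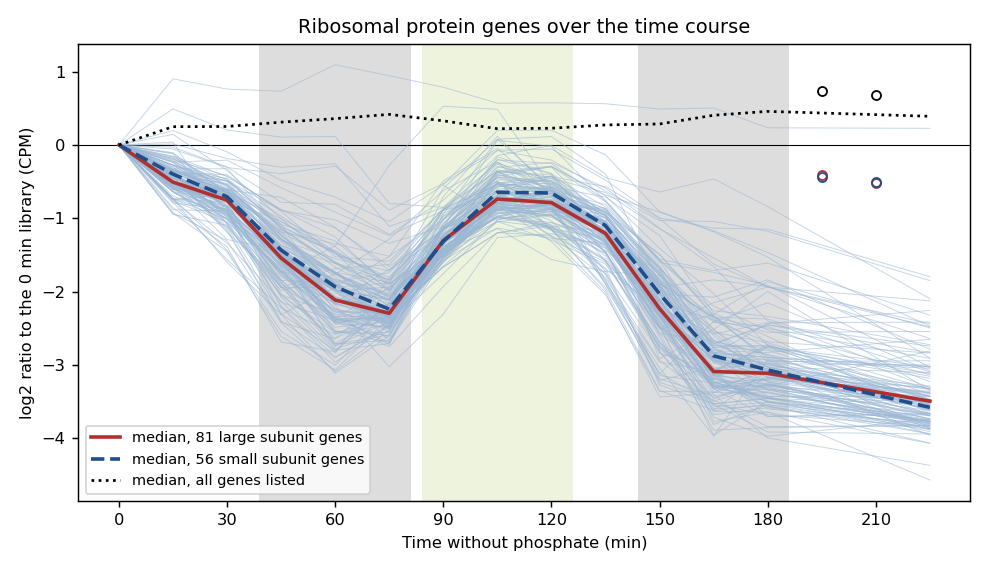
Log2 ratio of CPM to the 0 min library (vertical axis) against time without phosphate (horizontal axis, min). Thin lines are single members over the 14 deeper libraries, thick lines the medians of large and small subunit genes, the dotted line the median of all genes, open circles the same medians in the shallow libraries, and shading the 3 windows. Both subunits fall, recover near 105 min and fall again, and 1 thin line, RPL15B, stays above 0.

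The recovery was tested with limma's moderated test on the log2 values, fitted to all 4804 genes with values in 9 libraries, with 3 successive libraries standing in for replicates. Its p-values thus measure the spread within windows, which includes change over time. A member was called at an adjusted p under 0.05 and a log2 difference of at least 1. Between 45 to 75 min and 90 to 120 min 71 of 136 members were called higher, against a background of 5.29% of all genes called higher, with 134 members higher in sign. Lower were 0, also at an unadjusted p under 0.05. The median member rose by a log2 difference of 1.02, against -0.08 for all genes. The count depends on single libraries, being 39 without the 60 min library, 44 without that of 75 min and 35 without that of 105 min.

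The second fall took in nearly all members. From 90 to 120 min to 150 to 180 min 129 of 136 members were called lower, against 8.99% of all genes called lower. All 136 were lower in sign, the median difference was -1.84 against 0.11 for all genes, and the count stayed between 125 and 131 when any 1 of the 9 libraries was left out. The 7 members not called were RPL41A, RPL41B, RPL15B, RPL1A, RPS25A, RPS28A and RPS30A. By the adjusted p alone 134 of 136 were lower, all but RPL41A and RPL15B. The others named here missed only the log2 minimum.

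**Figure D3:**
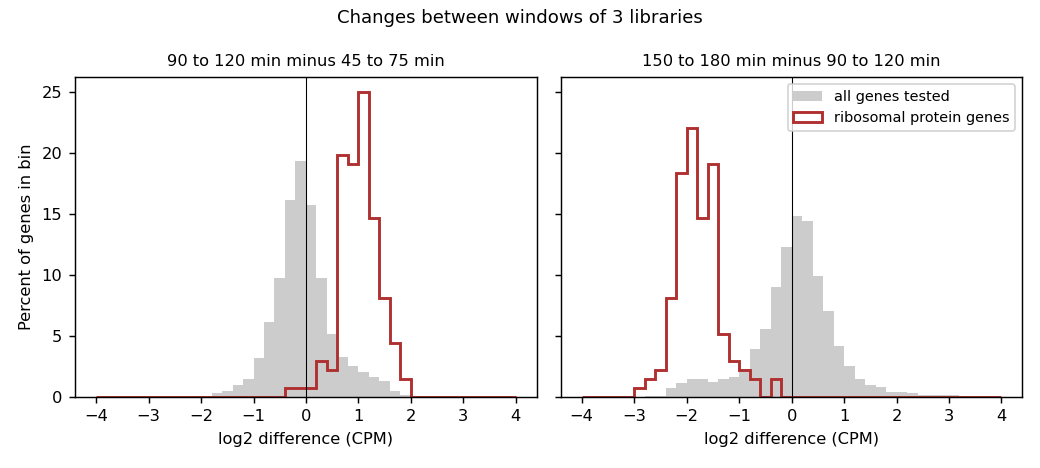
Distribution of log2 differences of CPM between windows (horizontal axis) as percent of genes per bin (vertical axis), for all genes tested (grey) and ribosomal protein genes (red outline). Members center near 1.02 in the left panel and near -1.84 in the right, away from all genes at -0.08 and 0.11.

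A line through all 15 starvation libraries gave a median change of -1.13 from 15 to 225 min and 0 of 136 members called lower, against 0.284% of all genes, with 8 members at an unadjusted p under 0.05. Without the libraries labelled 195 and 210 min the median change was -2.44 and 108 of 136 members were called, against 3.29% of all genes. That count is carried by the ends of the course: it was 0 without the 225 min library, 2 without that of 15 min or of 180 min, 7 without that of 30 min and 19 without that of 165 min.

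Large and small subunit genes followed the same course. Of 81 large subunit genes 42 were called higher in the recovery and 77 lower in the second fall, and of 55 small subunit genes 29 and 52. The median log2 ratio of the large subunit minus that of the small was -0.12 ± 0.06 at 45 to 75 min, -0.07 ± 0.07 at 90 to 120 min and -0.15 ± 0.10 at 150 to 180 min (SD over 3 libraries). The large subunit was lower in 11 of 13 deeper starvation libraries, with differences from -0.22 to 0.09. By means of members it was lower in 13 of 13, by -0.09 ± 0.05 (SD over the 13), and with A and B copies summed in 12 of 13. No test was made of this difference. All 13 values are ratios to the same 0 min library, so their signs are not separate observations. Between windows, where that library drops out, median changes of large and small subunit genes were 1.016 and 1.028 in the recovery. In the second fall they were -1.834 and -1.845. The interquartile range of members ran from 0.24 to 0.71 over the 13 libraries.

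Among large subunit proteins with a single gene, RPL3 and RPL10 serve as examples at the core of the subunit. RPL3, whose protein lies near the peptidyl transferase center, stood at 12.10 log2 CPM at 0 min, 11.72, 11.45, 10.62, 9.94, 10.14, 10.97, 11.41, 11.25, 10.91, 9.53, 9.01 and 9.02 at 15 to 180 min and 8.72 at 225 min. It was 11.82 and 11.31 in the libraries labelled 195 and 210 min. Its recovery of 0.98 ± 0.21 (SE) fell just short of the minimum of 1, while its second fall of -2.02 ± 0.21 was called (limma, adjusted p = 1.63e-05). Without the library of 45 min or of 90 min the recovery passed, at 1.17 and 1.10. RPL10, whose protein is added late and readies the subunit for joining, changed by 0.64 ± 0.26 in the recovery (not called) and fell by 1.83 ± 0.26 (limma, adjusted p = 0.00015). RPL25, a protein at the exit of the nascent chain tunnel, changed by 1.00 ± 0.38 (limma, adjusted p = 0.0831) and -1.99 ± 0.38 (adjusted p = 0.00124). Without the 150 or the 180 min library the recovery of RPL25 was called, at the same size of 1.00.

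RPL5 and RPL11 carry the 5S ribosomal RNA into the large subunit. RPL5 stood at 11.71 log2 CPM at 0 min, 11.16, 10.91, 9.79, 8.99, 9.04, 10.18, 10.79, 10.54, 9.95, 8.89, 8.08 and 8.17 at 15 to 180 min and 7.84 at 225 min. It was 11.10 and 11.24 in the libraries labelled 195 and 210 min. It recovered by 1.23 ± 0.26 (limma, adjusted p = 0.00608) and fell by 2.13 ± 0.26 (adjusted p = 4.45e-05). RPL11B recovered by 1.51 ± 0.21 (limma, adjusted p = 0.00121), whereas RPL11A changed by 0.59 ± 0.30 (adjusted p = 0.205). Both fell afterwards, by 2.25 and 1.41. The copies of RPL11 share 60.9% of their 50-base stretches with other places, counted in RPL11A, so this contrast is uncertain, and the difference between them was not called.

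The acidic P proteins form the stalk of the large subunit, which recruits elongation factors. RPP0, which holds the stalk to the ribosome, stood at 12.05 log2 CPM at 0 min, 11.47, 11.36, 10.57, 9.67, 9.70, 10.39, 10.85, 10.95, 10.88, 10.01, 8.72 and 8.34 at 15 to 180 min and 8.37 at 225 min. It was 11.55 and 11.46 in the libraries labelled 195 and 210 min. None of the 5 stalk genes was called in the recovery, with changes between 0.64 for RPP2A and 0.97 for RPP2B. RPP1A was called, at 1.03 without the 45 min library and 1.14 without that of 90 min, and RPP2B at 1.24 without that of 45 min. All 5 were called in the second fall, from -1.44 for RPP1A to -1.70 for RPP0.

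RPL40A, RPL40B and RPS31 encode ribosomal proteins fused to ubiquitin, and so are also a source of ubiquitin. RPS31 stood at 12.65 log2 CPM at 0 min, 12.24, 11.91, 11.15, 10.42, 10.22, 11.05, 11.90, 11.99, 11.57, 10.71, 9.41 and 9.22 at 15 to 180 min and 8.74 at 225 min. It was 12.22 and 12.05 in the libraries labelled 195 and 210 min. Its recovery of 1.05 ± 0.36 was not called (limma, adjusted p = 0.0602), though it was called without any 1 of the libraries of 45, 90, 150 or 180 min, at 1.33, 1.35, 1.05 and 1.05. RPL40A and RPL40B changed by 0.79 each in the recovery, neither called, with RPL40B called at 1.01 without the 45 min library and 1.06 without that of 90 min. In the second fall all 3 were called, at -1.54 for RPL40A, -1.66 for RPL40B and -1.87 for RPS31. These genes thus followed the course of the other members.

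In the small subunit, RPS3, a protein of the messenger RNA entry channel, recovered by 1.04 ± 0.33 (limma, adjusted p = 0.0439). That call was lost without any 1 of the libraries of 60, 75, 105 or 120 min, at 0.88, 0.90, 0.93 and 0.94, and under centring, quantile normalization and either other variance model. RPS13 changed by 0.74 ± 0.33 (limma, adjusted p = 0.14) and then by -1.48 ± 0.33 (adjusted p = 0.00328). RPS20, of the head of the subunit, was the lowest single-copy gene at 0 min, at 9.45 log2 CPM per kilobase of coding sequence against a median of 12.50 for the 19. It had no value in the libraries labelled 195 and 210 min, where the lowest value listed was 244 and 222 CPM.

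RPL15B did not follow the block. It encodes a large subunit protein, 99.0% identical to that of RPL15A. RPL15B stood at 6.76 log2 CPM at 0 min, 7.67, 7.53, 7.50, 7.86, 7.71, 7.55, 7.33, 7.34, 7.33, 7.25, 7.27 and 6.998 at 15 to 180 min and 6.99 at 225 min. It was 8.21 and 7.82 in the libraries labelled 195 and 210 min. It lay above its value in the single 0 min library in every starvation library. The difference was up to 1.09 at 60 min among the deeper ones and 1.45 in that labelled 195 min. At 180 and 225 min it was 0.23 in each, less than the median of all genes at 0.46 and 0.39. The values rest on 98 to 428 recovered reads in the deeper libraries. Its window changes of -0.28 ± 0.17 and -0.24 ± 0.17 were not called (limma, adjusted p = 0.292 and 0.316). RPL15A stood at 11.62 log2 CPM at 0 min, 11.19, 10.92, 10.11, 9.63, 9.51, 10.45, 11.00, 10.90, 10.38, 9.29, 8.70 and 8.68 at 15 to 180 min and 8.57 at 225 min. It was 11.02 and 11.10 in the libraries labelled 195 and 210 min. RPL15A thus followed the block, falling by 1.89 ± 0.22 in the second fall (limma, adjusted p = 3.67e-05), and its level per coding length was on average 6.52-fold that of RPL15B. The test of the difference between the copies gave 1.31 ± 0.26 in the recovery (limma, adjusted p = 0.00454) and -1.66 ± 0.26 in the second fall (adjusted p = 0.000273).

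RPL41A and RPL41B encode the same very short protein, at a bridge between the subunits, from a coding sequence of 78 bases that differs at 1 base. RPL41A stood at 13.74 log2 CPM at 0 min, 14.23, 13.94, 13.84, 13.85, 12.94, 12.89, 13.59, 13.73, 13.29, 13.10, 13.27 and 12.90 at 15 to 180 min and 11.64 at 225 min. It was 14.08 and 14.09 in the libraries labelled 195 and 210 min. Its log2 ratio to 0 min lay between 0.49 and -0.85 up to 120 min and was -2.10 at 225 min. Its recovery of -0.14 ± 0.29 and second change of -0.32 ± 0.29 were not called (limma, adjusted p = 0.792 and 0.439), nor were those of RPL41B at 0.06 and -0.71. The sign of the first change turned when single libraries were left out, to as much as 0.12 for RPL41A without the 90 min library and -0.22 for RPL41B without that of 75 min.

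RPS30A, RPS28A, RPS22B and RPL1A also stayed closer to their 0 min level than the median member. At 225 min the log2 ratio to 0 min was -1.85 for RPS30A, -1.80 for RPS28A and -2.13 for RPL1A, against -3.51 for the median member. At 75 min it was -1.05 for RPS22B against -2.27 for the median member. RPS22B overlaps another gene: its intron holds the small nucleolar RNA gene SNR44, whose reads could not be separated here. RPL7A and RPL7B likewise overlap SNR39 and SNR59. RPS28A shares no stretch of 50 bases and was in whole reads in all libraries. The call of RPS22B in the second fall was lost without the 180 min library, at -0.99, and RPS28A was called without that of 90 min, at -1.03.

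Within pairs, copies stood at different levels. In 24 pairs the A copy was the higher in every deeper library that listed both copies, which for RPS28 were only 6. In 15 pairs the A copy was the higher in no deeper library, with the copies of RPS6 even at 60 min. The other 20 had a mixed order. In 22 pairs the copies were at least 2-fold apart per coding length. RPS14A exceeded RPS14B by 13.4-fold, RPL36B exceeded RPL36A by 7.35-fold, RPS25A exceeded RPS25B by 7.27-fold and RPL8B exceeded RPL8A by 5.89-fold. At the other end, RPS29, RPL11 and RPL40 had mean differences between -0.11 and 0.07 (log2 per kilobase).

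RPS28B was the lowest member, at 4.45 log2 CPM at 0 min from 75 reads. It was listed in only 5 other libraries, those of 90 to 150 min, with 12 to 34 reads. Where both copies were listed, RPS28A exceeded it by 198-fold per coding length.

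The difference between copies was tested in the same fits, at an adjusted p under 0.05 with no fold minimum. In the recovery 12 of 58 pairs were called, against 17.1% of all genes at that rule in either direction, and in the second fall 16, against 31.1%. These shares are near those of genes at large, so a call of this kind does not set the pairs apart. Of the 19 pairs without a shared stretch, 4 were called in each contrast. The first count was 5 without the library of 60 or of 105 min, 6 without that of 45 min and 7 without that of 90 min. Over 15 starvation libraries 0 pairs had a called slope, against 1.95% of genes at that rule, with 5 at an unadjusted p under 0.05. Over the 13 deeper ones RPL9 and RPL37 did, against 7.27%.

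RPL31, whose protein lies beside the exit tunnel, is a pair whose copies share no stretch of 50 bases. RPL31A stood at 11.53 log2 CPM at 0 min, 11.07, 10.86, 10.05, 9.44, 9.09, 9.98, 10.64, 10.72, 10.32, 9.29, 8.25 and 8.04 at 15 to 180 min and 7.74 at 225 min. RPL31B stood at 10.67 log2 CPM at 0 min, 10.24, 9.52, 8.27, 7.77, 8.21, 9.59, 10.31, 10.01, 9.08, 7.92, 7.47 and 7.41 at 15 to 180 min and 6.86 at 225 min. In the libraries labelled 195 and 210 min RPL31A was 10.97 and 11.01 and RPL31B 10.04 and 10.40. RPL31B recovered by 1.89 ± 0.21 (limma, adjusted p = 0.000839) and RPL31A by 0.92 ± 0.32 (adjusted p = 0.0588). The difference of -0.96 ± 0.25 (A minus B) was called (limma, adjusted p = 0.016), but not without the library of 45, 60, 90 or 105 min, at -0.80, -0.85, -0.92 and -0.89. In the second fall the copies did not differ at the threshold, at 0.45 ± 0.25 (adjusted p = 0.185).

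RPS14 encodes a protein of the small subunit platform, which in yeast also acts on the RPS14B transcript to lower it. RPS14A stood at 12.39 log2 CPM at 0 min, 12.12, 11.93, 11.26, 10.73, 10.34, 10.95, 11.59, 11.74, 11.49, 10.61, 10.05 and 9.61 at 15 to 180 min and 9.21 at 225 min. RPS14B stood at 9.15 log2 CPM at 0 min, 8.37, 7.58, 6.93, 6.56, 6.91, 8.45, 9.27, 8.54, 7.25, 6.11, 5.18 and 6.22 at 15 to 180 min and 5.30 at 225 min. In the libraries labelled 195 and 210 min RPS14A was 12.05 and 11.98 and RPS14B 8.62 and 9.18. RPS14B exceeded its 0 min value at 105 min and was lowest at 165 min, from 36 reads. Its rise of 1.95 ± 0.28 and its fall of 2.92 ± 0.28 were the largest of all members in each contrast (limma, adjusted p = 0.00124 and 8.03e-06). The copies differed by -1.30 ± 0.34 in the recovery (limma, adjusted p = 0.0188), which was not called without the library of 45, 60, 90 or 105 min, at -1.12, -1.20, -1.22 and -1.12. In the second fall they differed by 1.58 ± 0.34 (adjusted p = 0.003).

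RPL1 forms the stalk through which spent transfer RNA leaves. RPL1A stood at 10.97 log2 CPM at 0 min, 10.73, 10.76, 10.38, 10.05, 9.73, 10.08, 10.33, 10.53, 10.40, 9.96, 9.34 and 9.03 at 15 to 180 min and 8.84 at 225 min. RPL1B stood at 11.16 log2 CPM at 0 min, 10.70, 10.05, 8.86, 8.05, 8.56, 9.82, 10.40, 10.06, 9.48, 7.89, 7.63 and 7.71 at 15 to 180 min and 7.39 at 225 min. In the libraries labelled 195 and 210 min RPL1A was 10.89 and 11.02 and RPL1B 10.84 and 10.78. The copies differed by -1.34 ± 0.24 in the recovery (limma, adjusted p = 0.003) and by 1.48 ± 0.24 in the second fall (adjusted p = 0.000343). With 81.0% of their 50-base stretches shared, these values depend on how reads were divided.

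In 10 pairs, among them RPL1, RPL7, RPL15, RPS14, RPS18, RPS25, RPS26 and RPS30, the difference was called in both contrasts, each time with opposite signs. The contrasts share the libraries of 90 to 120 min, so a value high or low there enters both with opposite sign. In all but RPL15 the B copy rose more and then fell more. The first call was lost without single libraries in several, among them RPL7 without that of 45, 60, 90 or 105 min (-0.90 to -1.02) and RPS25 without any 1 of the libraries of 45 to 105 min (-0.59 to -0.77). That of RPS25 was also lost without a variance trend. The second was lost in RPS26 without that of 165 min (0.56). Of the pairs named here, RPS25 and RPS26 share no stretch of 50 bases between coding sequences. Even so, both copies of each did not come out as whole reads in all 16 libraries, so their values are uncertain too.

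The swing of a copy was taken as its change in the recovery minus its change in the second contrast, and copies were ordered by their level per coding length at 0 min, a library that enters neither change. The copy lower at 0 min had the larger swing in 38 of 58 pairs, with a median of 3.18 log2 units against 2.79 for the higher copies. Among pairs at least 2-fold apart at 0 min this held in 12 of 16, the exceptions being RPL8, RPL15, RPS21 and RPS22. Of the 19 pairs without a shared stretch of 50 bases, RPS28 had no swing. The exceptions among the rest of the 19 were RPL16, RPP1, RPP2, RPS10, RPS21, RPS22, RPS27 and RPS29. All other pairs share sequence, so their swings depend on how reads were divided. The copy lower at 0 min reached its first minimum earlier in 25 pairs, later in 5 and in the same library in 28. In RPL7, RPL31 and RPS14 it had this minimum at 60 min and the other copy at 75 min, and in RPL1 the order was the reverse. With copies ordered by their mean over the deeper libraries, which the changes themselves help to set, the swing was larger in the lower copy in 43 of 58 pairs. These are counts without a test, the order by 0 min was added after seeing the data, and lower copies rest on fewer reads.

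**Figure D4:**
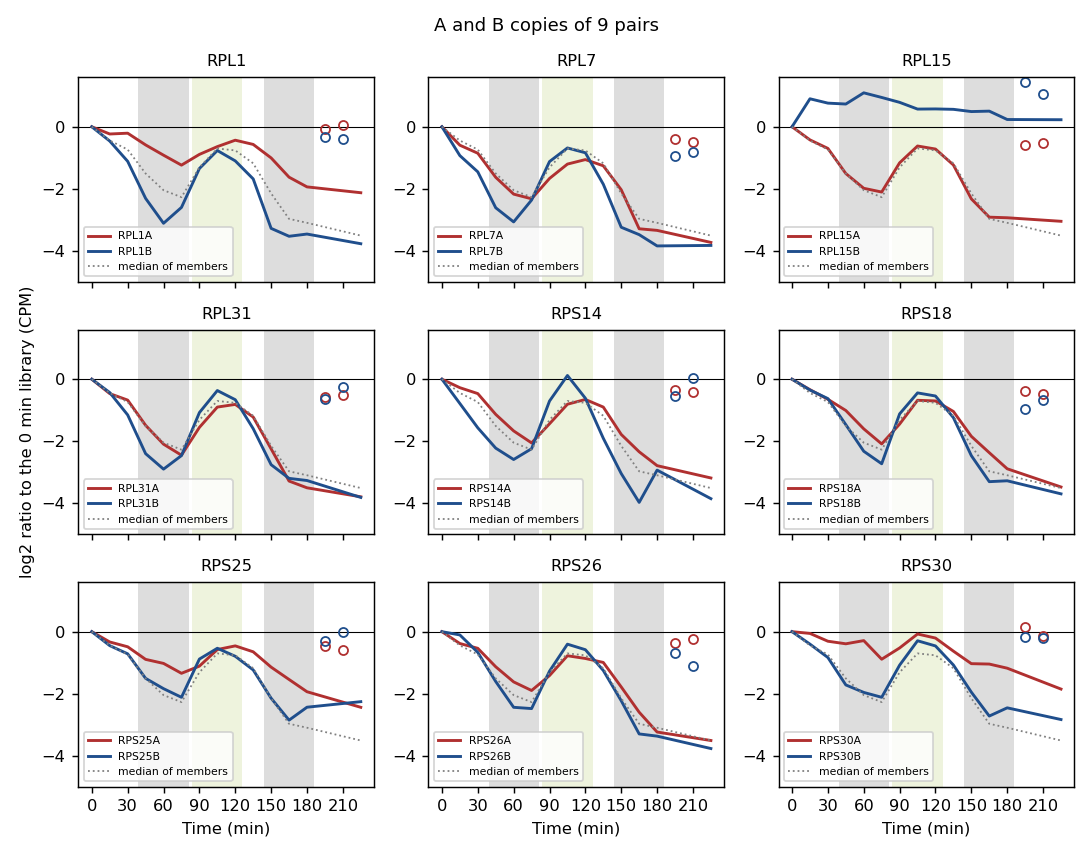
Log2 ratio of CPM to the 0 min library (vertical axes) against time (horizontal axes, min) for the A copy (red) and B copy (blue) of 9 pairs, with the median of all members dotted. Open circles are the shallow libraries. The B copies of RPL1, RPL7, RPL31 and RPS14 have their first minimum at 60 min and change more in the recovery than their A copies, and RPL15B stays above 0.

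Other members with large swings were RPL7B, which recovered by 1.80 ± 0.22 and fell by 2.64 ± 0.22, RPS24B with 1.78 and -2.54, and RPS9A with 1.28 and -2.63. The recovery of RPS9A was not called without the library of 45, 60, 90 or 105 min, at 0.98, 1.16, 1.09 and 1.11, nor without a variance trend. RPL22B, whose splicing is held back by its own protein in yeast, recovered by 1.68 ± 0.26 (limma, adjusted p = 0.00162) from 74 to 140 recovered reads per library at 30 to 75 min.

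Upstream sequence was searched for the Rap1-like motif ACCCNNACA on both strands of the 500 bases before each start codon. It was found in 54 of 137 members (39.4%) against 5.47% of 6000 genes, and at least 2 copies stood before 8 members against 0.283% of genes. An Fhl1-like motif, GACGCNNA, stood before 19.0% of members and 11.3% of genes, and a Tbf1-like motif, AACCCTA, before 2.92% and 4.17%. The 3 patterns may overlap each other in a window, and each match is a string of letters, not a known site. Members with and without the Rap1-like motif had nearly the same medians, -1.97 and -1.95 at 45 to 75 min, -0.92 and -0.91 at 90 to 120 min and -2.79 and -2.74 at 150 to 180 min.

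Genes that start back to back and share an upstream region occurred in 5 places. Those of RPS16B with RPL13A and of RPL13B with RPS16A hold both copies of 2 families, each with 2 Rap1-like motifs. The shared stretches are printed with those of RPL2B and RPS7A as examples of double motifs before a single member, 5′ to 3′ on the strand of the gene named, in build R64, with the motif in capitals on whichever strand it reads.

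RPL13A, shared with RPS16B, chrIV:308129-308228 (plus strand): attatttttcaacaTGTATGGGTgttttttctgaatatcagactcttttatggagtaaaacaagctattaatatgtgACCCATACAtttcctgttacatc
RPS16A, shared with RPL13B, chrXIII:551530-551629 (plus strand): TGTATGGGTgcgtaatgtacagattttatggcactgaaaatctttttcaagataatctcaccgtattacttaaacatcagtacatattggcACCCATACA
RPL2B, chrIX:316318-316417 (plus strand): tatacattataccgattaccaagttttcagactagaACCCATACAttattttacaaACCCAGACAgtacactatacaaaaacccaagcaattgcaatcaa
RPS7A, chrXV:505294-505393 (plus strand): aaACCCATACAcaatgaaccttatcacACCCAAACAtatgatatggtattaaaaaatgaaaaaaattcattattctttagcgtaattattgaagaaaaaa

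RPL13A and RPS16B, on either side of the first stretch, recovered by 1.23 ± 0.20 and 1.27 ± 0.36 and fell by 2.13 and 2.20. RPL13B and RPS16A, beside the second, changed by 0.65 ± 0.31 (not called) and 1.00 ± 0.30 (called) and fell by 1.47 and 1.85. The difference between copies was called in neither contrast, for RPL13 (limma, adjusted p = 0.15 and 0.0691) or RPS16 (adjusted p = 0.44 and 0.239). Members with an intron in the coding sequence (89) and without one (48) also had like medians, -1.98 and -1.86 at 45 to 75 min and -2.83 and -2.64 at 150 to 180 min, as did members with and without a shared stretch of 50 bases, at -2.79 and -2.71 in the last window.

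Other genes of the pathway were set beside the members, against the same backgrounds of 5.29% of all genes called higher in the recovery and 8.99% called lower in the second contrast. Of 47 ribosome biogenesis genes tested, which process ribosomal RNA and build the subunits, 39 were called higher in the recovery and 43 lower in the second fall, with medians of 1.36 and -1.90. In the first fall their median was lowest at 45 min, at -2.40, and it was back at -0.39 by 90 min, when the median member lay at -1.31. Of 13 chaperones and partners of ribosomal proteins 6 were called higher and then 10 lower, among them RRB1, a chaperone of Rpl3, and TSR2, a chaperone of Rps26, with medians of 0.94 and -1.51. Of 10 elongation factors 1 was called higher (YEF3) and 3 lower (TEF1, EFT2 and YEF3), with medians of 0.16 and -0.56.

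Genes named as ribosomal proteins of the mitochondrion (MRP, MRPL, MRPS or RSM with a number) had medians of -0.28 and 0.21 in the same contrasts. Of 65 tested MRP8 was the only one called, higher in the second. The list was taken by name alone, so a gene such as MRP8 may not encode a ribosomal protein. Of 11 regulators of ribosomal protein genes tested, UTP22, a partner of Ifh1 that also works in small subunit assembly, was called higher and then lower, and YAK1, a kinase active in poor nutrients, was called higher in the second contrast. RAP1 changed by 0.72 ± 0.29 in the recovery (limma, adjusted p = 0.104) and FHL1 by 0.01 ± 0.29 (adjusted p = 0.987).

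**Figure D5:**
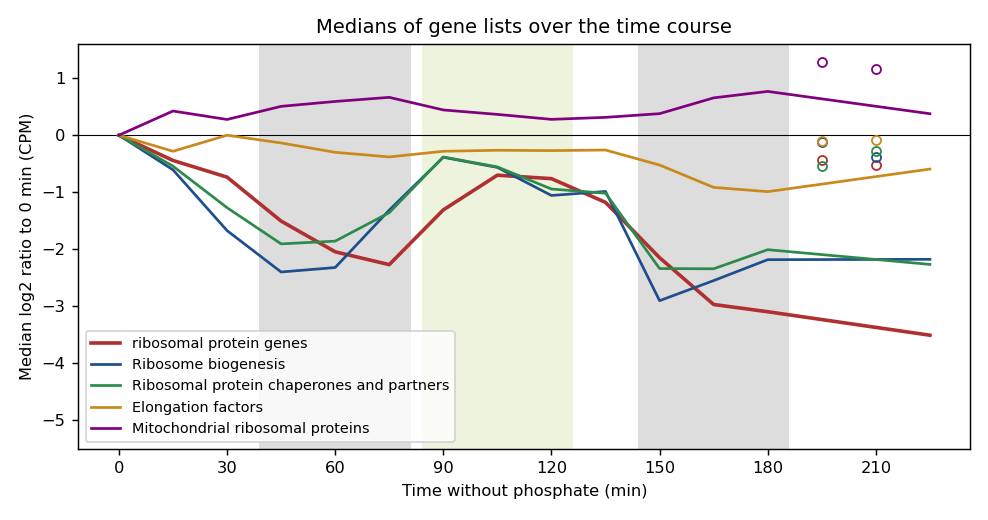
Median log2 ratio of CPM to the 0 min library (vertical axis) against time without phosphate (horizontal axis, min) for ribosomal protein genes and 4 other gene lists. Open circles are the shallow libraries, where fewer genes are listed. Ribosome biogenesis genes reach -2.40 at 45 min and -0.39 at 90 min, before the ribosomal protein genes, and mitochondrial ribosomal protein genes stay above 0.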

How the data were processed

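The deposited table holds log2 reads per 1000000 for 16 libraries. Raised back, each library sums to 1000000 CPM, and genes below a floor have no value. The submitters' processing notes name Bowtie, without its version, and the build R64. How reads were counted, with which annotation, and how those matching several places were handled is not given in the sources used here. Of 6701 entries, 51 unnamed ones and 2 under a doubled name were left out.

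All values were used as deposited, without a pseudocount. Contrasts and slopes were fitted to all genes with limma (version 3.58.1, under R 4.3.3), using lmFit and trended eBayes, two-sided, with Benjamini-Hochberg adjustment over all genes and pairs; a slope needed 8 values. The fits were tested on simulated data. The A minus B differences entered as extra rows. Neither ratios to 0 min nor shares were tested, as only 1 library represents 0 min. Sequences and intron positions came from the RefSeq R64 genome, where all 137 members were matched by name, and were read with Biopython 1.88. The members, windows and lists were chosen with earlier results of these data known.

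Named were the members with the largest and smallest window changes and slopes, those farthest from the median course, stalk, ubiquitin fusion and 5S genes, single-copy examples, and pairs by level and by change; neighbors and motif examples were added after their values were seen. Alternatives were other scalings, variance models, filters, leaving out each library, and, added after seeing the data, left-out libraries and removed autocorrelation for the 13-library slope. The labels do not say whether the libraries came from 1 culture. Results of some single genes are not reported here.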

Additional observations from a re-analysis of the deposited data

How the results depend on the processing

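Members called higher in the recovery numbered 35 to 92 with 1 library left out, and those called lower in the second fall 125 to 131. Over the 15 starvation libraries 0 members had a called slope, whichever library was left out, and 108 did without those labelled 195 and 210 min. That 13-library count, with alternatives chosen after seeing the data, ran from 0 to 123 with 1 library left out. It was 0 over 15 to 180 min with the autocorrelation removed, a fit that also lacks the 225 min library, without which the count was already 0. Per 1000000 reads of other genes the members lay at -2.36 at 45 to 75 min. Over genes listed in all 16 libraries their share was 14.9%, 25.8% and 9.50% in the 3 windows. Pairs called numbered 5 to 19 in the recovery and 13 to 19 in the second fall with 1 library left out, and 2 for the slope without the libraries labelled 195 and 210 min. Signs turned in few cases. The slope of RPL22B was 0.038 with the autocorrelation removed, the recovery of RPL41A was 0.00 after quantile normalization, and leaving out 1 library gave these ranges. The slope of RPL22B ran from -0.79 to 0.59. The slope of RPL9B ran from -0.93 to 0.28. The recovery of RPL41A ran from -0.45 to 0.12. The recovery of RPL41B ran from -0.22 to 0.23. The cause of these moves was not tested. Of all alternative values of named genes and pairs 1808 kept direction and call, 61 lost the call, 43 gained it and 14 changed sign. No paired analysis was possible because each group is 1 library. Depth limits low members such as RPS28B and every value of the libraries labelled 195 and 210 min.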
